A study of Mus musculus with 5 samples.

Results

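The SLC25 genes encode the mitochondrial carriers, a family of membrane proteins that move nucleotides, phosphate, amino acids, carboxylates, cofactors and metal ions across the inner mitochondrial membrane. The 47 genes described here are the protein-coding mouse genes whose GENCODE M21 symbol is Slc25a followed by a number, out of 47729 genes in the deposited count table. No measured value entered that rule, though earlier results of these data were known when it was set. Expression was measured by RNA sequencing of 5 brain samples from male mice of the inbred strain C57BL/6 aged 30 months. The labels name no treatment, engineered allele or brain region. All 5 samples form 1 group, so there was no contrast between conditions, and the design asks at what level each carrier was expressed in the aged brain and how far the samples differed. The samples carry the numbers 7, 8, 9, 10 and 11 and are called mice 7 to 11. The labels do not say in words that each sample came from a separate animal, and what SDs and p-values measure is sample-to-sample spread, part of which may be technical.

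Most SLC25 proteins share a fold made of repeated pairs of membrane helices and exchange one solute for another, which couples the cytosol to oxidative metabolism in the matrix. In neurons and glia they export ATP, import phosphate and the substrates of respiration, carry reducing equivalents through the malate-aspartate shuttle and move glutamate, iron, glutathione and coenzyme precursors. A few members work elsewhere, in the peroxisome or in the outer mitochondrial membrane.

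The libraries held between 15392006 and 18723390 counts, with 22686 to 24708 genes detected by at least 1 count. Sums and deviations within a gene are given as CPM, counts scaled to a common library total, and levels between genes as RPKM, which also divides by gene length, both recomputed with each library's own total. Markers of brain cell types were abundant in every library: the summed CPM of 6 neuronal genes lay between 5729 and 6501, of 6 astrocyte genes between 4339 and 6249 and of 5 oligodendrocyte genes between 4232 and 5841. The 3 cerebellar granule cell markers Cbln3, Gabra6 and Fat2 differed widely, with summed levels of 19.5, 1.82, 0.958, 72.0 and 1.66 CPM in mice 7 to 11. In bulk tissue, fewer cells of a type and less RNA per cell cannot be told apart. Library 11 stood apart in its dependence on base composition, which is described with the variation between mice below.

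All 47 members had at least 1 count in some library, and 41 reached the mean of 10 counts required for the test of variation. Of the 47, 39 averaged at least 1 RPKM and 20 at least 10 RPKM. Over the 41 tested members the median of the mean levels was 8.88 RPKM, against 4.59 RPKM over all 16318 genes tested and 5.85 RPKM over the protein-coding ones. Together the members took 2896, 2903, 2955, 2947 and 3246 CPM in mice 7 to 11, a mean of 2990 ± 146 CPM (SD, n = 5). Mouse 11 had the highest sum, and the other 4 mice lay close together. The family total was concentrated in a few genes: the member with the most counts held 14.5% of the summed CPM, the leading 3 held 40.4% and the leading 10 held 73.0%.

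**Figure D1:**
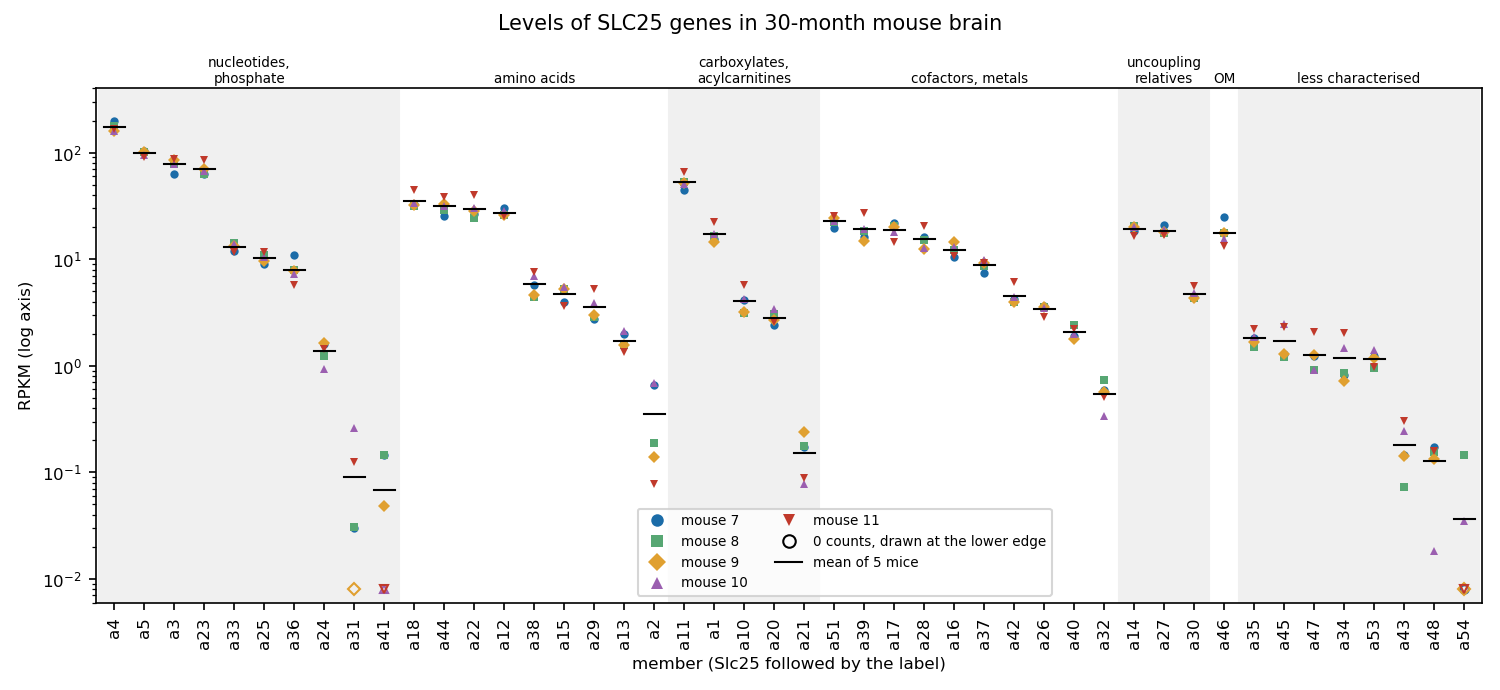
Level of SLC25 genes in RPKM (log axis) in the 5 mice, grouped by the solute carried (OM, the outer membrane member); points are single mice, bars are means, and open symbols at the lower edge are libraries with 0 counts. Within most expressed members the 5 points lie close together, while members differ from about 173 RPKM for Slc25a4 to 0.0362 RPKM for Slc25a54.

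The carriers of nucleotides and phosphate held most of the family's expression: their 10 members took 52.1% of its summed CPM. Slc25a4 (ENSMUSG00000031633, adenine nucleotide translocator 1) and Slc25a5 (ENSMUSG00000016319, translocator 2) exchange matrix ATP for cytosolic ADP. Slc25a4 was the highest of all members, with 199, 178, 158, 160.1 and 168 RPKM in mice 7 to 11 and a mean of 172.7 ± 16.8 RPKM (SD, n = 5), above 99.1% of the genes tested. Slc25a5 had 103, 101, 101, 94.4 and 91.7 RPKM, with a mean of 98.1 ± 4.81 RPKM. The lowest Slc25a4 value, in mouse 9, lay above the highest Slc25a5 value, in mouse 7. The log2 ratio of Slc25a4 to Slc25a5 was 0.81 ± 0.12 and was positive in 5 of 5 mice, with an exact two-sided sign-flip permutation p = 0.063, the smallest that 5 mice allow.

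Reads of these genes have to be told apart by sequence, so the start of both coding sequences is shown. They are from the GENCODE M21 transcripts (GRCm38), coding bases 1 to 120, at chr8:46209500-46210922 on the minus strand and chrX:36795731-36796851 on the plus strand, where the spans include any introns. Capitals mark the bases at which the aligned stretches differ.
Slc25a4: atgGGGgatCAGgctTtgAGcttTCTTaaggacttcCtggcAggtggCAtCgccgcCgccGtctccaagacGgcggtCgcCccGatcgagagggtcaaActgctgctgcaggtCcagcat
Slc25a5: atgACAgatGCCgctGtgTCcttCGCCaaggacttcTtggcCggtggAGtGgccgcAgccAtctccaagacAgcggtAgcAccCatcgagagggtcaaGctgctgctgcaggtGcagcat
Both coding sequences are 894 bases long and 77.4% identical. In the stretch shown, 94 bases match and 26 differ, and the longest identical run is 14 bases. Over the whole coding sequence it is 20 bases. Among other annotated genes, 2 had matches of at least 95% identity over at least 300 bases to the Slc25a5 transcript, and their summed mean count was 0.122% of that of Slc25a5.

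Slc25a3, the phosphate carrier that supplies ATP synthase, had 62.9, 78.1, 85.3, 77.5 and 87.5 RPKM in mice 7 to 11, with a mean of 78.3 ± 9.65 RPKM (SD, n = 5). Mouse 7 was the lowest. Slc25a23, a calcium-regulated exchanger of ATP-magnesium for phosphate, had 62.3, 62.6, 70.0, 67.5 and 85.1 RPKM, with mouse 11 the highest. Its relatives with the same regulation were lower. Slc25a25 had 9.02, 10.98, 9.65, 10.4 and 11.7 RPKM, and Slc25a24 had 1.61, 1.23, 1.62, 0.926 and 1.43 RPKM. Neither relative overlapped the range of Slc25a23. The log2 ratio of Slc25a23 to Slc25a25 was 2.73 ± 0.15 and that of Slc25a23 to Slc25a24 was 5.59 ± 0.34, both positive in 5 of 5 mice with an exact permutation p = 0.063.

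The pyrimidine nucleotide carriers Slc25a36 and Slc25a33, which serve mitochondrial nucleic acid synthesis, were of moderate level. Slc25a36 had 10.9, 7.93, 7.83, 7.28 and 5.72 RPKM in mice 7 to 11, and Slc25a33 had 11.9, 14.2, 13.3, 13.9 and 11.6 RPKM. Slc25a36 had its highest value in mouse 7 and its lowest in mouse 11, and lay below Slc25a33 in every mouse. Their log2 ratio was -0.73 ± 0.35 (exact permutation p = 0.063), and it was nearest to 0 in mouse 7, at -0.13. In M21, 14.9% of the exon bases of Slc25a33 overlap exons of Gm13068 on the other strand. The pseudogene Gm13217 matched Slc25a36 at 99.6% identity over 544 bases, and its mean count was 2.19% of that of Slc25a36. The remaining members of this group were close to the limit of detection. Slc25a31, the testis form of the adenine nucleotide translocator, had 1, 1, 0, 9 and 5 counts, while the testis markers Prm1 and Tnp1 summed to at most 0.193 CPM and Tnp1 was at 0 in every library. Slc25a41, a relative of Slc25a23 that lacks its calcium-binding domain, had 3, 3, 1, 0 and 0 counts. A count of 0 allows up to 3 counts, which is 0.160 to 0.195 CPM at these depths and covers counting error only.

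The amino acid carriers, 9 members, took 20.3% of the family's summed CPM, and 4 of them stood among the 10 highest by RPKM. Slc25a12 (aralar) and Slc25a13 (citrin) exchange aspartate for glutamate in the malate-aspartate shuttle. Slc25a12 had 30.0, 26.2, 26.1, 28.2 and 25.2 RPKM in mice 7 to 11, and Slc25a13, known as the form of the liver, had 2.00, 1.57, 1.56, 2.10 and 1.35 RPKM. Slc25a12 over Slc25a13 gave a log2 ratio of 3.92 ± 0.16, a 15.1-fold difference, positive in 5 of 5 mice (exact permutation p = 0.063). Slc25a12 was also among the 3 tested members with the smallest spread, with an SD of 0.10 on the log2 CPM scale.

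Slc25a22 and Slc25a18 are the glutamate carriers GC1 and GC2. Slc25a22 had 26.3, 24.4, 28.1, 29.9 and 40.4 RPKM in mice 7 to 11. Slc25a18, which marks astrocytes in the brain, had 33.2, 31.7, 32.4, 33.4 and 44.7 RPKM. Both were highest in mouse 11, where the value of Slc25a18 stood clear of a narrow band formed by the other 4 mice. The log2 ratio of Slc25a22 to Slc25a18 was -0.24 ± 0.10 and was negative in 5 of 5 mice, the smallest of the ratios that kept 1 sign (exact permutation p = 0.063). Beside the high Slc25a18 in mouse 11, the 6 astrocyte markers Slc1a2, Slc1a3, Aqp4, Aldh1l1, Gja1 and Gfap summed to 5341, 6249, 6064, 6110 and 4339 CPM, lowest in that mouse. Slc1a2 makes up most of this sum. Of the 6 markers, Slc1a2 and Aqp4 were lowest in mouse 11, Aldh1l1 was highest there, and the other 3 were lower in mouse 7 or mouse 9 than in mouse 11.

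Slc25a44, a carrier of branched-chain amino acids, had 25.6, 28.9, 32.8, 31.7 and 38.5 RPKM in mice 7 to 11, lowest in mouse 7 and highest in mouse 11. Slc25a38, known from yeast and human as a glycine carrier for haem synthesis, averaged 5.86 ± 1.41 RPKM (SD, n = 5), and Slc25a29, a carrier of basic amino acids, 3.55 ± 1.05 RPKM. Slc25a15 and Slc25a2 are the ornithine carriers, of which Slc25a15 works in the urea cycle. Slc25a15 had 3.99, 5.27, 5.20, 5.44 and 3.67 RPKM, while Slc25a2 had only 14, 4, 3, 15 and 2 counts, or 0.658, 0.190, 0.140, 0.683 and 0.0780 RPKM. Slc25a15 over Slc25a2 gave a log2 ratio positive in 5 of 5 mice, at 3.67 ± 0.96 (exact permutation p = 0.063), the widest spread of the ratios. Slc25a2 was higher in mice 7 and 10 than in the other 3 mice, and mice 7 and 10 also had the highest summed cerebellar granule cell markers, 19.5 and 72.0 CPM against at most 1.82 CPM in the others. The part of tissue composition in the Slc25a2 counts was not tested.

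The 5 carriers of carboxylates and acylcarnitines took 5.99% of the family's CPM. Slc25a11, the oxoglutarate carrier and partner of Slc25a12 in the malate-aspartate shuttle, led this group with 44.6, 53.5, 52.1, 50.6 and 65.7 RPKM in mice 7 to 11. Slc25a10, the dicarboxylate carrier, had 4.11, 3.14, 3.21, 4.26 and 5.69 RPKM. Both were highest in mouse 11. On the log2 scale Slc25a11 exceeded Slc25a10 by 3.70 ± 0.29, or 13.0-fold, with 5 of 5 mice positive (exact permutation p = 0.063). In M21, 8.92% of the exon bases of Slc25a11 overlap exons of Rnf167 on the other strand. For Slc25a10, 6.6% overlap exons of Gm11788, also on the other strand. The strand setting of the counting was not given in the sources used here.

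Slc25a1, the citrate carrier that supplies cytosolic acetyl groups for lipid synthesis, averaged 17.3 ± 3.12 RPKM (SD, n = 5). Slc25a20, which brings acylcarnitines in for fatty acid oxidation, averaged 2.82 ± 0.41 RPKM. Slc25a21, the oxodicarboxylate carrier of lysine and tryptophan breakdown, was the lowest tested member, with 13, 13, 18, 6 and 8 counts, or 0.174, 0.176, 0.239, 0.0778 and 0.0889 RPKM. Its 3 higher values came from mice 7, 8 and 9. It had the largest SD of the tested members, 0.67 on the log2 CPM scale, at counts where sampling alone is wide, and did not pass the test of variation (adjusted p = 0.991, edgeR quasi-likelihood dispersion test).

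The carriers of cofactors and metals, 11 members, took 14.7% of the family's CPM. Slc25a51, the NAD carrier, was the highest, with 19.5, 22.6, 24.2, 22.9 and 25.2 RPKM in mice 7 to 11 and mouse 7 the lowest. Slc25a39 and Slc25a40 import glutathione. Slc25a39 had 16.1, 18.3, 14.8, 19.2 and 27.0 RPKM, and Slc25a40 had 1.89, 2.43, 1.79, 1.98 and 2.19 RPKM. Slc25a39 was highest in mouse 11 and its range lay far above that of Slc25a40. Their log2 ratio was 3.13 ± 0.27, positive in 5 of 5 mice (exact permutation p = 0.063).

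The mitoferrins bring iron in for haem and iron-sulphur clusters: Slc25a37 (mitoferrin 1) is the form of developing red cells and Slc25a28 (mitoferrin 2) that of other tissues. Slc25a28 had 16.2, 14.98, 12.6, 12.7 and 20.5 RPKM in mice 7 to 11, and Slc25a37 had 7.49, 8.60, 9.20, 9.91 and 9.21 RPKM. With the gene lengths that the deposited RPKM imply, the log2 ratio of Slc25a28 to Slc25a37 was 0.77 ± 0.36 and positive in 5 of 5 mice (exact permutation p = 0.063). With the exon length in M21, 3749 rather than 1514 bases for Slc25a28, it was -0.53, so the order of the mitoferrins rests on which length is used. Erythroid markers summed to 105, 157, 54.9, 131 and 174 CPM. By RPKM all 6 were lowest in mouse 9, though Slc4a1 had 8 counts both there and in mouse 7. Of the 6, 3 were highest in mouse 8 and 3 in mouse 11. The RPKM of Slc25a37, by contrast, was least in mouse 7 and most in mouse 10.

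Slc25a16 and Slc25a42 are linked to the transport of coenzyme A. Slc25a42 had 4.23, 3.99, 3.94, 4.40 and 6.08 RPKM in mice 7 to 11, and Slc25a16 had 10.4, 12.1, 14.4, 12.9 and 10.7 RPKM. Slc25a42 stood out in mouse 11, but stayed below Slc25a16 in every mouse. The log2 ratio of Slc25a42 to Slc25a16 was -1.41 ± 0.39 (exact permutation p = 0.063) and was nearest to 0 in mouse 11, at -0.81. Slc25a26, which imports the methyl donor S-adenosylmethionine, had 3.61, 3.58, 3.59, 3.45 and 2.88 RPKM, with mouse 11 below the other 4 mice. Slc25a17, a peroxisomal carrier of coenzyme A and other nucleotide cofactors, averaged 18.97 ± 2.895 RPKM (SD, n = 5), and Slc25a32, a carrier of folate and flavin, 0.546 ± 0.141 RPKM.

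The uncoupling protein relatives took 3.44% of the family's CPM. With the dependence on base composition kept, they were among its steadier members. Removing trends in GC content and length, described below, gave SDs of 0.04 for Slc25a14, 0.16 for Slc25a27 and 0.31 for Slc25a30. The median over the tested members was then 0.16. Slc25a14 (UCP5), which is abundant in brain, had 18.5, 20.6, 19.96, 19.96 and 16.6 RPKM in mice 7 to 11. Slc25a27 (UCP4), expressed mainly in the nervous system, had 21.1, 17.8, 17.9, 18.8 and 17.0 RPKM. Their ranges overlapped. The log2 ratio of Slc25a14 to Slc25a27 was 0.05 ± 0.16, positive in 3 of 5 mice (exact permutation p = 0.5625), and no order between them could be told with these gene lengths. With the M21 exon length, 3935 rather than 2687 bases for Slc25a27, the ratio was 0.59 with p = 0.063 in the same exact permutation test. Slc25a30, a kidney-enriched relative, averaged 4.69 ± 0.534 RPKM (SD, n = 5). Slc25a46, an outer membrane protein that acts in mitochondrial dynamics, had 25.1, 17.4, 17.5, 15.5 and 13.3 RPKM, with mouse 7 at the top and mouse 11 at the bottom.

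**Figure D2:**
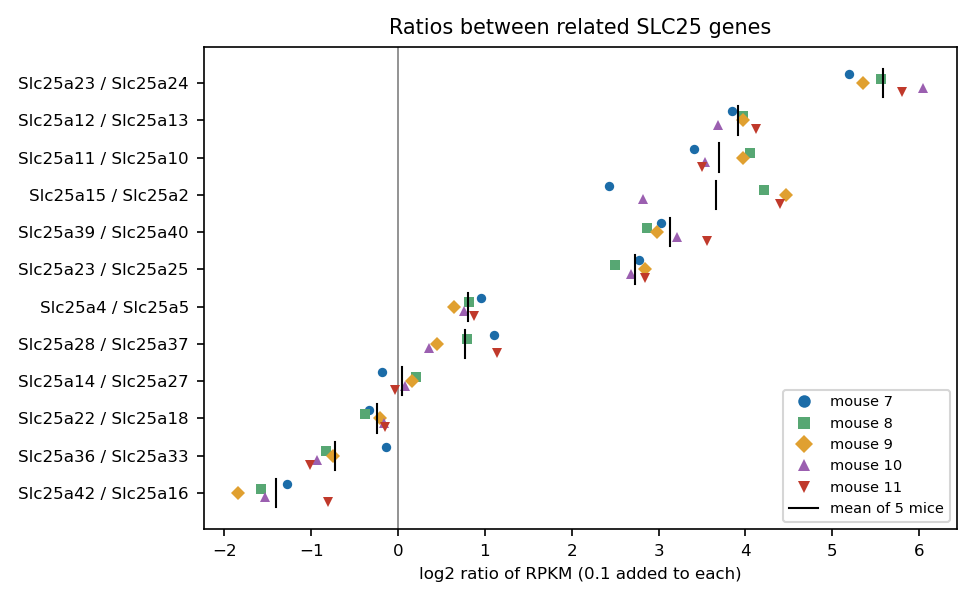
Log2 ratio of RPKM (0.1 added to each) between 12 pairs of SLC25 genes that carry related solutes, with 1 point per mouse and a bar at the mean of the 5 mice; points right of 0 mean that the gene named before the slash was higher. In 11 of the 12 pairs all 5 mice lie on the same side of 0, and the points of Slc25a14 / Slc25a27 lie on both sides.

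Across the 12 pairs, 11 had the same sign in all 5 mice and reached an exact permutation p = 0.063, which is also the smallest value possible and cannot pass 0.05 before or after adjustment. Any pair whose 5 signs agree reaches this value. The pairs were chosen with earlier results of these data known, so their equal p-values are descriptions and not independent support. They also share genes and lengths, and Slc25a23 enters 2 of them. The implied length was within 1% of the M21 exon length for 37 of the 47 members. It was shorter for Slc25a15, Slc25a17, Slc25a21, Slc25a27, Slc25a28, Slc25a30, Slc25a32, Slc25a45, Slc25a46 and Slc25a47, whose RPKM would be lower with the M21 length.

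The 8 less characterised members together took only 0.883% of the family's CPM. Slc25a35 averaged 1.82 ± 0.27 RPKM (SD, n = 5), and 31.3% of its exon bases overlap exons of Rangrf on the other strand. Slc25a53 averaged 1.15 ± 0.193 RPKM. Slc25a47, known as a liver carrier, had between 22 and 61 counts, while the liver markers Alb, Apoa1 and Cyp2e1 summed to 0.855 to 2.92 CPM. Slc25a45 had 53, 49, 54, 105 and 114 counts in mice 7 to 11, or 1.29, 1.20, 1.30, 2.47 and 2.30 RPKM, with mice 10 and 11 above the other 3. Slc25a34 showed the same split, with 34, 35, 30, 63 and 101 counts, or 0.819, 0.852, 0.717, 1.47 and 2.02 RPKM. These genes had SDs of 0.50 and 0.63 on the log2 CPM scale, the largest among tested members after Slc25a21. The other 3 were below the mean of 10 counts: Slc25a43 had 4, 2, 4, 7 and 10 counts, Slc25a48 had 9, 8, 7, 1 and 10, and Slc25a54 had 0, 4, 0, 1 and 0.

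The variation between mice was tested for every gene by comparing its edgeR quasi-likelihood dispersion with the distribution fitted to genes of like expression. A call would thus mean more spread than genes of like expression, and no call does not mean no variation between mice. At an adjusted p under 0.05 (Benjamini-Hochberg over all genes), 0 of 41 tested members were called variable, beside 0 of all 16318 genes, a background of 0%. At an unadjusted p under 0.05 there were 0 members, against 789 genes in all (4.84%). DESeq2 marked 49 genes as dispersion outliers (0.3%), with 0 members among them. With no filter on low counts, edgeR called 60 genes (0.212%), with 0 of 47 members among them. The member with the lowest p was Slc25a34 (adjusted p = 0.979, edgeR). The biological coefficient of variation over all genes was 23.4%, and it was 16.7% without mouse 11. Moderate differences in a single mouse would go uncalled at such a spread, and large ones can too. Fat2, with 160, 21, 15, 638 and 9 counts in mice 7 to 11, was not called (adjusted p = 0.957, edgeR).

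Members varied somewhat less than the average gene. Their median SD of log2 CPM was 0.22, against 0.30 over all genes tested and 0.28 over the protein-coding ones, and the median ratio of a member's dispersion to that fitted for its expression level was 0.747, against 0.944 over all genes. These medians are descriptions without a test. With trends in base composition kept, the steadiest tested members were Slc25a5 (SD 0.07), Slc25a12 (SD 0.10) and Slc25a27 (SD 0.12).

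Mouse 11 was the extreme sample for most members. Of the 41 tested members, 20 (48.8%) were highest in mouse 11, against 33.0% of all genes tested, and 11 (26.8%) were lowest there, against 36.6% of all genes. Whether a member was high or low there tended to follow its base composition. Transcript GC content ranged from 39.7% in Slc25a40 to 60.9% in Slc25a28, with a median of 50.1% in members and 49.8% in all genes tested. In mouse 11 the correlation between a member's GC content and its deviation from the mean of the 5 mice was r = 0.781 across 41 members, against 0.638 across 16264 genes. Members share a library here and are not independent replicates. In mice 7, 8 and 9 the correlation was negative, at -0.496, -0.576 and -0.605 across members, against -0.407, -0.299 and -0.266 across all genes. In mouse 10 it was 0.302 across members and -0.00647 across all genes.

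All 14 members with the highest GC content, from 54.1% to 60.9%, lay above their own mean in mouse 11, by a median of 0.45 on the log2 scale. Among all tested genes of at least that GC content, 91.0% did so. Of the 14 members with the lowest, from 39.7% to 47.7%, 3 lay above their own mean in mouse 11 and the median deviation was -0.21, while 14.7% of all genes in that range lay above theirs. Of the 20 carriers that were highest in mouse 11, 13 belonged to these GC-rich members, among them Slc25a22, Slc25a39, Slc25a1, Slc25a42 and Slc25a10. Another 6, Slc25a51, Slc25a3, Slc25a35, Slc25a44, Slc25a18 and Slc25a25, had intermediate GC content, and Slc25a30 was among the 14 lowest. The pattern was shared with the rest of the transcriptome.

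**Figure D3:**
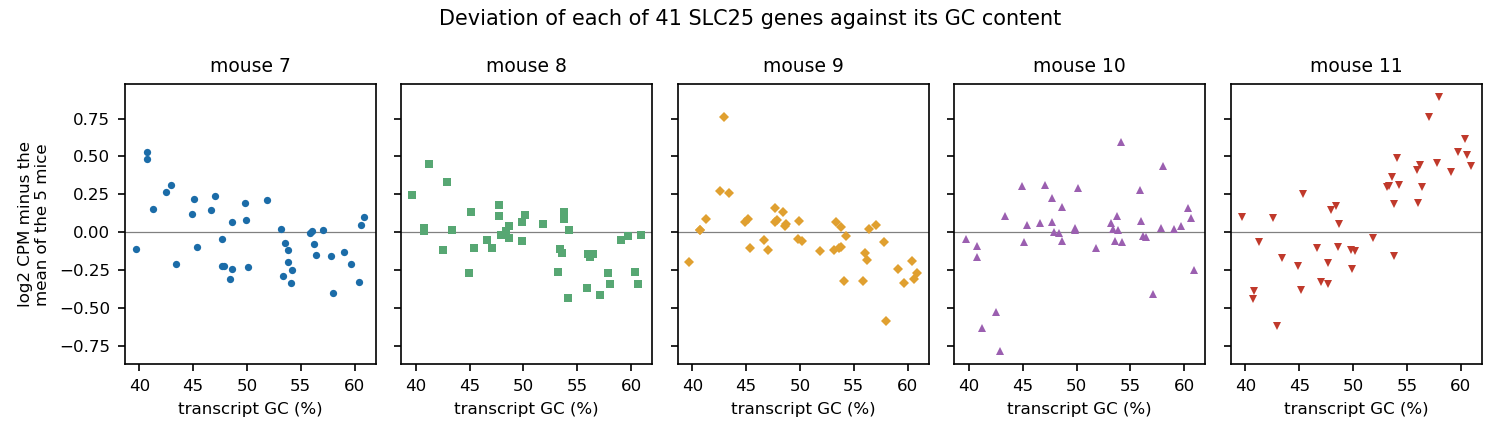
Deviation of each of the 41 tested SLC25 genes from its own mean over the 5 mice (log2 CPM, vertical axis) against the GC content of its longest coding transcript in percent (horizontal axis), with 1 panel per mouse and 1 point per gene. Points climb with GC content in mouse 11 (r = 0.781) and descend in mice 7, 8 and 9 (r from -0.605 to -0.496).

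Coding stretches of members at both ends illustrate the contrast in transcript GC content. The stretches below are 100 coding bases each from the GENCODE M21 transcripts (GRCm38), chosen to have a GC content close to that of the whole transcript, with G and C in capitals. The 3 members of highest GC content come first, and they deviated by 0.43, 0.51 and 0.61 in mouse 11. Slc25a28 is shown from coding base 245 to 344 (chr19:43667091-43674522 on the minus strand), Slc25a10 from 44 to 143 (chr11:120492030-120494529 on the plus strand) and Slc25a29 from 2 to 101 (chr12:108827735-108835684 on the minus strand).
Slc25a28: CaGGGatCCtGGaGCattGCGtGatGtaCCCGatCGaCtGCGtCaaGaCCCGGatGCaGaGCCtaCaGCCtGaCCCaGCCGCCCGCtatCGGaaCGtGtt
Slc25a10: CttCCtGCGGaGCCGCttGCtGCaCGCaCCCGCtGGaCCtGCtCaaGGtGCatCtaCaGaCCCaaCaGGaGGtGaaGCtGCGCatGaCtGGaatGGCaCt
Slc25a29: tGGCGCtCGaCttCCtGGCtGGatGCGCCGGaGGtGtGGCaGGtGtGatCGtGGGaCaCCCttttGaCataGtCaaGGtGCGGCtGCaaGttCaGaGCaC
The 3 members set against them are the lowest in GC content among those with a mean of at least 100 counts, apart from Slc25a46, which is not shown, and they deviated by 0.10, -0.44 and -0.17 in mouse 11. Slc25a40 is shown from coding base 140 to 239 (chr5:8428668-8430490 on the plus strand), Slc25a36 from 280 to 379 (chr9:97093083-97097107 on the minus strand) and Slc25a16 from 176 to 275 (chr10:62928341-62930354 on the plus strand), and each span includes introns where it is longer than the stretch.
Slc25a40: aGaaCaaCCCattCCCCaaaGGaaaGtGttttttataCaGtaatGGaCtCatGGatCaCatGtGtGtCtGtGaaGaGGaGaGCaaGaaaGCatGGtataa
Slc25a36: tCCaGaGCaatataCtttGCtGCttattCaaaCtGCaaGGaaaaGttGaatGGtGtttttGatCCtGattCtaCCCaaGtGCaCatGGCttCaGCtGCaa
Slc25a16: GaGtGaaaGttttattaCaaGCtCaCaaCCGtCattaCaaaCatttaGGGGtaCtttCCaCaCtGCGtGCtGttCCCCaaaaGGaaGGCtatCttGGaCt
The first 3 stretches hold 60% to 61% G and C, and the last 3 hold 40% to 43%, which follows from how they were chosen. Over the whole coding sequence the GC content was 60.35%, 58.3% and 61.44% in Slc25a28, Slc25a10 and Slc25a29. It was 40.85%, 45.98% and 52.11% in Slc25a40, Slc25a36 and Slc25a16, so the contrast was smaller there for Slc25a36 and Slc25a16. Slc25a40 went against the pattern: it has the lowest GC content of the family and was slightly above its mean in mouse 11. Its GC content is that of a transcript of 2784 bases, while its implied gene length is 8385 bases. Whether this mismatch matters was not tested.

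In an alternative chosen after the data were examined, a smooth trend with GC content and gene length was fitted over all genes and removed from each library. The median SD over the 41 members was then 0.16, against 0.24 with the trends kept under the same scaling, and over all genes it was 0.22, against 0.30. For 26 of the 41 members the SD became smaller, and the share of all genes for which it did was not counted. The SD was 0.09 against 0.36 for Slc25a39, 0.09 against 0.30 for Slc25a36, 0.13 against 0.31 for Slc25a46 and 0.10 against 0.24 for Slc25a18. For the other 15 it became larger. Slc25a40 widened the most, with an SD of 0.47 against 0.18, and Slc25a30 (SD 0.31 against 0.19) and Slc25a16 (SD 0.30 against 0.19) widened too. So did the members named above as steadiest, Slc25a5 (SD 0.07 against 0.05), Slc25a12 (SD 0.15 against 0.08) and Slc25a27 (SD 0.16 against 0.10). Slc25a14 then had the smallest SD, 0.04. Among the widest with the trends removed were also Slc25a21 (SD 0.53), Slc25a45 (SD 0.42), Slc25a34 (SD 0.41), Slc25a24 (SD 0.41) and Slc25a32 (SD 0.40), of which Slc25a45 and Slc25a34 were still highest in mice 10 and 11. Slc25a40 was then the only member with an unadjusted p under 0.05 (adjusted p = 0.873, edgeR), beside 5.61% of all genes. Again 0 members were called, beside 0 genes in all. With the trends removed (TMM scaling), 16 of the 41 members were highest in mouse 11 and 8 were lowest there. Across members, the correlation of GC content with the deviation in mouse 11 was then -0.345. The share of all genes highest in mouse 11 after removal was not counted.

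**Figure D4:**
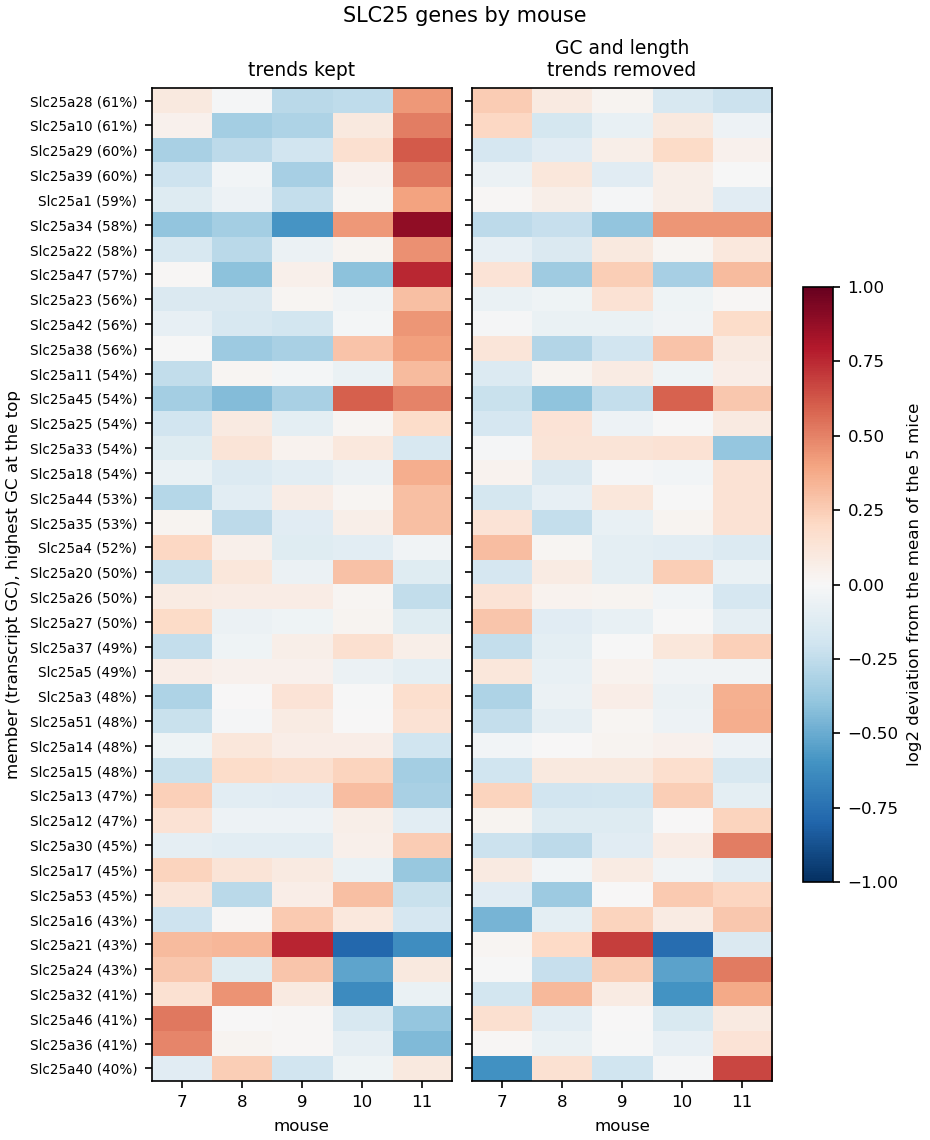
Log2 deviation of tested SLC25 genes from their means over the 5 mice, with genes in rows ordered from the highest transcript GC content at the top and mice in columns, before (left, own library totals) and after (right, TMM scaling) removal of the trends with GC content and length. On the left, mouse 11 is red at the top and mostly blue in the lower part, and on the right colours are paler (median SD 0.16 over the 41 tested members), with Slc25a34, Slc25a45 and Slc25a21 still varying and Slc25a40 varying more than on the left.

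Genes that work with the carriers were read from the same fit. Of the family proteins with other names, Mtch1, an outer membrane relative of the carriers, was highest at 126 ± 25.2 RPKM (SD, n = 5), and Ucp1, the uncoupling protein of brown fat, was lowest at 0.0699 ± 0.0699 RPKM. Among the cytosolic and mitochondrial enzymes of the malate-aspartate shuttle, to which Slc25a12 and Slc25a11 belong, Mdh1 was highest at 244 ± 62.7 RPKM and Mdh2 lowest at 57.4 ± 6.93 RPKM. The outer membrane channel Vdac1 reached 233 ± 18.6 RPKM, above Slc25a4, and Vdac3 29.6 ± 3.42 RPKM. The pyruvate carrier subunits Mpc1 and Mpc2 averaged 8.76 and 5.64 RPKM, the calcium uniporter genes lay between 1.56 RPKM for Mcub and 44.0 RPKM for Smdt1, the genes of carrier import between 1.97 RPKM for Timm10b and 61.1 RPKM for Tomm70a, and Gpd2 and Gpd1 of the glycerol phosphate shuttle averaged 25.7 and 19.3 RPKM. Of the 28 genes in these lists 27 were tested, all but Ucp1, and edgeR called 0 of them variable between mice, beside 0 of all 16318 genes (0%), with 0 of the 27 at an unadjusted p under 0.05.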

How the data were processed

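Brain RNA of 5 samples from male C57BL/6 mice was made into libraries with an Illumina mRNA kit, per the labels' protocols. For 47729 Ensembl genes the authors deposited a table of raw counts and a table of RPKM values. CASAVA 1.7, STAR 2.4.1d, featureCounts 1.4.6-p4 and GRCm38 are named, per the submitters' processing notes, without roles. The annotation release, the strand setting and read filters are not given in the sources used here. Reads of overlapping, antisense or near-identical genes may be misassigned, and members other than those named for it above also have such overlaps.

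The RPKM deposited by the authors were not divided by their own library's total: for 0 of 12729 genes checked did the 5 libraries imply a gene length within 1% when own totals were used, and for 12729 when the totals were taken in turn down the table. RPKM was recomputed with own totals and that implied length, which changes values by 0.822 to 1.22 times. Symbols, coordinates and transcript sequences come from GENCODE M21 (47310 of 47729 identifiers matched; the others held 0.0469% of counts). GC content is that of the longest protein-coding transcript.

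Log2 CPM used 0.5 added counts. Variation between mice was tested with edgeR 4.0.16 (TMM factors 0.959 to 1.02, quasi-likelihood fit of an intercept, limma 3.58.1 robust F distribution) for the 16318 genes that averaged 10 counts or more, adjusted over all of them. The procedure was tested on simulated data that held no trend with GC content. Among genes averaging 100 counts or more it recovered most 16-fold differences in 1 mouse and no 4-fold ones. It also made 5 false calls. The absence of calls therefore says nothing of differences up to 4-fold. Larger differences in the real data went uncalled too: the cerebellar markers Fat2 and Cbln3 each had an adjusted p = 0.957 (edgeR). For each pair, log2((RPKM + 0.1) / (RPKM + 0.1)) was taken within a library and tested by exact sign-flip permutation. Every pair of libraries differed beyond sampling noise, with a chi-square per gene of 7.02 to 101, so 5 samples were kept. Near-identical copies were searched with blastn 2.17.0. Alternatives were DESeq2 1.42.0 size factors and dispersion outliers, library size alone, other filters and pseudocounts, deposited RPKM, M21 lengths, each mouse left out and, chosen after seeing the data, removal of GC and length trends (splines fitted to genes averaging 50 counts or more).

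Values in every mouse are given for the 10 highest members, members of the pairs, called members, the 3 largest and 3 smallest SDs of tested members and members with 1 mouse far from the others; values of Slc25a46, of members below a mean of 10 counts and of related lists were added, the last as the highest and the lowest. The values of 1 member are not reported here, though it enters the counts and sums. Members, lists and pairs were chosen with earlier results of these data known.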

Additional observations from a re-analysis of the deposited data

Results flagged for a closer look

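In 3 of the 41 tested carriers, 1 mouse lay so far from the other 4 that its gap to the nearest of them took more than 0.71 of the whole range of log2 CPM. In each of them the mouse was 11. Slc25a18, the glutamate carrier that marks astrocytes, was high in mouse 11, with a gap of 0.844 of the range. Slc25a26, the S-adenosylmethionine carrier, was low in mouse 11, with a gap of 0.797. Slc25a42, a coenzyme A carrier, was high in mouse 11, with a gap of 0.746. Chance alone gives such a gap in about 5% of groups. The share was 7.32% among the members and 10.5% among all genes tested. The GC content of the transcripts was 53.6%, 49.9% and 56.2%. With the trends of GC content and length removed (TMM scaling), their log2 deviations in mouse 11 were 0.14, -0.17 and 0.18, against 0.36, -0.24 and 0.44 with them kept (own library totals). None of them passed the edgeR test of variation, at adjusted p = 0.991, 1 and 0.987.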

How the results depend on the processing

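The tested members stayed uncalled under each scaling, filter (38 of the 41 were tested at a mean of at least 50 counts) and left-out mouse, with the trends of GC content and length removed, and by DESeq2, and the lowest adjusted p of a member over these alternatives was 0.81 (Slc25a46, edgeR). The number of all genes called variable was 0 in the edgeR fit and 0 with each mouse left out, 60 with no filter on low counts (0.212% of 28335 genes, 0 of 47 members) and 49 as DESeq2 dispersion outliers. Without mouse 11 and with the trends removed, 1 member had an unadjusted p under 0.05, Slc25a16 (adjusted p = 0.862, edgeR). Of 108 alternatives for the 12 pairs, 107 kept the sign of the mean ratio. For pairs with the same sign in every mouse, leaving out a mouse or changing the pseudocount could not reverse it. For those pairs only the deposited RPKM and the M21 lengths could do so. For Slc25a14 and Slc25a27 a kept sign says little, as their ratio ranged from 0.0042 to 0.10 with each mouse left out. The ratio of Slc25a28 to Slc25a37 was -0.53 with the M21 exon length, which is longer than the implied one for Slc25a28. With each mouse left out, it ranged from 0.68 to 0.87, the ratio of Slc25a4 to Slc25a5 from 0.77 to 0.85 and the mean summed level of the family from 2925 to 3013 CPM. With 4 mice the smallest exact permutation p is 0.125. No paired analysis was possible because all samples belong to 1 group. Members under a mean of 10 counts are limited by depth: a count of 0 allows up to 3 counts.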
